A study of Mus musculus with 8 samples.

Results

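Histone demethylases, histone methyltransferases, deacetylases and sirtuins are the enzymes that write and erase methyl and acetyl groups on the lysines of histones and other proteins. The genes described here are the 40 of the 22520 genes and assembled transcripts in the RNA-seq table whose symbol is Kdm, Kmt, Hdac or Sirt with a number and, in some, a letter. The naming rule alone matches 44 symbols and leaves out 4 of them. The rule itself uses no measured value, but it was set with earlier results of these data known. The 40 are 14 demethylases (Kdm), 8 methyltransferases (Kmt), 11 zinc-dependent deacetylases (Hdac) and 7 sirtuins (Sirt).

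The RNA came from mouse splenic CD8+ T cells isolated by negative magnetic selection and held under persistent stimulation with antibodies to CD3 and CD28 and with IL-2, a culture used to drive exhaustion. The strain and age of the mice behind these libraries are not given in the labels. From day 3 of culture the cells received DADA, diisopropylamine dichloroacetate, at 40 µM or the same volume of its solvent DMSO, and they were harvested on day 6. DADA inhibits pyruvate dehydrogenase kinase, the enzyme that switches off the entry of pyruvate into the mitochondrial acetyl-CoA pool. There were 4 libraries with DMSO and 4 with DADA, all cells of both groups being activated and cultured in the same way. A genotype tag in the labels reads control or model, although the titles and the treatment set the groups apart by compound only. Expression is given as FPKM, fragments scaled by transcript length and by the mapped total of the library, so that levels can be set side by side between genes.

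The chemistry of these enzymes ties them to metabolism. Demethylases of the JmjC type use oxygen, iron and 2-oxoglutarate, the pair KDM1A and KDM1B uses FAD, methyltransferases use S-adenosylmethionine, sirtuins consume NAD+, and zinc-dependent deacetylases remove the acetyl groups that acetyltransferases take from acetyl-CoA. In CD8+ T cells, such marks are known for their part in the passage between memory, effector and exhausted states. RNA levels do not measure the activity of the enzymes, and no histone mark was measured in these libraries.

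The 8 libraries summed to 438299 to 456939 FPKM. Log values of libraries of the same group correlated at 0.993 or more and those of different groups at 0.961 or less, and 80.1% of the variance lay on the first principal component. Of 9 markers of CD8 T cells, 7 were in the table and all 7 reached 1 FPKM. Their summed level was 1026 to 1058 FPKM with DMSO and 1268 to 1302 FPKM with DADA. Markers of other cells summed to little: 2.59 to 3.56 and 2.36 to 3.09 FPKM for B cells (Pax5 at 0 in every library), 3.51 to 3.99 and 5.15 to 5.72 FPKM for myeloid cells (Csf1r, Adgre1, S100a8 and S100a9 at 0), 16.3 to 17.4 and 15.3 to 15.8 FPKM for CD4 T cells (only Zbtb7b at 1 FPKM or more), and under 0.4 FPKM for NK and erythroid cells. In these bulk samples, fewer cells of a type and less RNA per cell cannot be told apart. The FPKM values carry no read counts. A depth estimated from the smallest values, 13660000 to 18700000 fragments, rests on a weak pattern, since only 28.9% to 41.5% of those values lay within 0.1 of a whole fragment where chance gives 20%, so no counting error is attached.

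A level of 1 FPKM in 4 libraries or more was asked of a gene before testing, and 37 of the 40 met it. The test was a limma model on log2(FPKM + 1), with SE as the standard error of a log2 fold change and 95% intervals per gene without adjustment, fitted over all 10666 genes that passed. At an adjusted p (Benjamini-Hochberg) under 0.05, 21 of the 37 (56.8%) were called, 14 higher and 7 lower with DADA, and 16 were not called. DADA moved much of the transcriptome, and this share must be read against it: 66.2% of all tested genes were called, 30.9% higher and 35.3% lower. The balance of directions over all genes turned with a common total per library (3868 higher and 3467 lower) and without the filter on low values (4007 and 3861). The groups did not overlap for 22 of the 37 (59.5%), where 60.6% of all genes had groups that did not overlap. Neither share of the 37 exceeded that of all genes. Changes were, by size, somewhat smaller than among all genes. The median log2 fold change was 0.04 among the 37 genes and -0.02 among all genes, and the median size without its sign was 0.17 against 0.21. A change of 0.5 or more was seen for 3 of them (8.11%), Kdm4b, Hdac7 and Sirt6, all higher with DADA, against 16.1% of all genes.

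**Figure D1:**
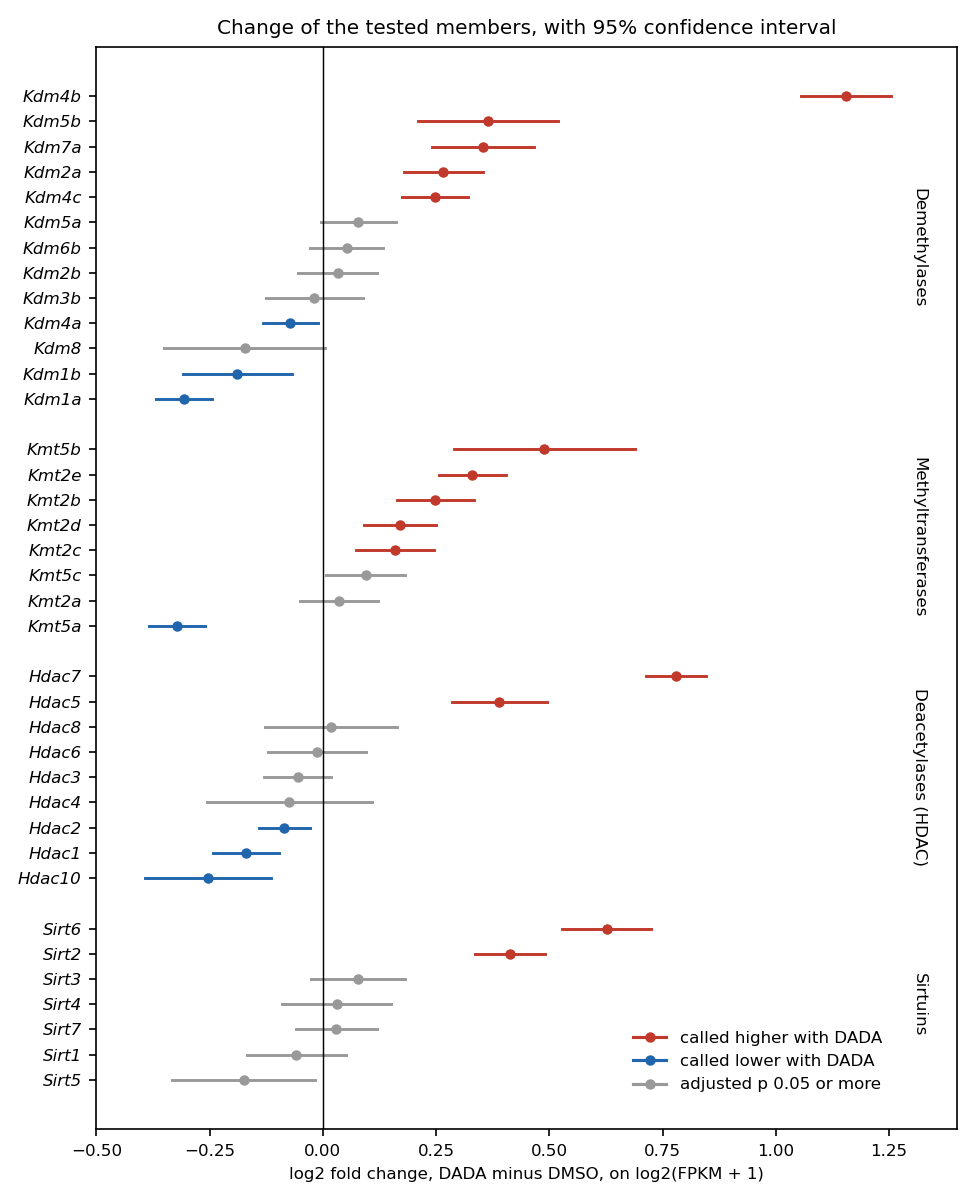
Log2 fold change (DADA minus DMSO, on the log2(FPKM + 1) scale) of the 37 tested genes, by family, with the 95% confidence interval of the limma fit. Red marks the 14 genes called higher, blue the 7 called lower and grey the 16 with an adjusted p of 0.05 or more. Kdm4b, Hdac7 and Sirt6 lie beyond 0.5, and no gene lies below -0.5.

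Among demethylases, DADA raised 5 JmjC genes, lowered both FAD-dependent genes and lowered Kdm4a slightly. Kdm4b, whose product removes trimethyl groups from H3K9 and H3K36, rose most, from 5.80 ± 0.360 to 14.1 ± 0.320 FPKM (SD, n = 4 each). Of the 13 tested genes, 5 rose, 3 fell and 5 were not called, with a median log2 fold change of 0.05. The share called, 61.5%, was near the 66.2% of all tested genes. Within the 10 tested 2-oxoglutarate JmjC demethylases, KDM8 set aside, 5 rose and 1 fell (60% called), and the median was 0.16.

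Kdm4b (ENSMUSG00000024201) was listed at 5.57, 6.29, 5.87 and 5.49 FPKM with DMSO and at 14.5, 14.01, 13.8 and 14.2 FPKM with DADA. Every DADA library lay at more than 2 times the level of any DMSO library. The log2 fold change was 1.15 (SE 0.0443, adjusted p = 1.03e-08 by limma), the largest of the 37. Its close relatives behaved otherwise. Kdm4c rose from 11.9 to 14.3 FPKM (log2 fold change 0.25, limma adjusted p = 7.66e-05). Kdm4a, the most abundant member of this group, was at 35.3 to 36.3 FPKM with DMSO and 33.2 to 35.3 FPKM with DADA (log2 fold change -0.07, limma adjusted p = 0.0385). The call of Kdm4a was lost under 11 of 17 other settings, among them rescaling to a common total (-0.04, limma adjusted p = 0.269). Within libraries, the ratio of Kdm4b to Kdm4a was 0.155 to 0.178 with DMSO and 0.408 to 0.429 with DADA, and that of Kdm4b to Kdm4c went from 0.451 to 0.546 up to 0.939 to 1.03. The dominant RNA of the group was thus the same under both conditions, while Kdm4b drew level with Kdm4c. Kdm4d, which lacks the reader domains of its relatives and is best known from testis, lay under the filter at 0.768 ± 0.142 and 1.09 ± 0.290 FPKM, with overlapping groups (exact permutation p = 0.114, two-sided).

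Kdm5b, a demethylase of trimethylated H3K4, read 12.9, 13.1, 13.6 and 12.2 FPKM with DMSO and 15.5, 15.4, 19.2 and 17.9 FPKM with DADA. All DADA libraries were higher, but they spread more widely (SD 1.87 against 0.603 FPKM), with DADA 3 and DADA 4 above the other two. The log2 fold change was 0.36 (SE 0.0687, adjusted p = 9.61e-04 by limma). Its relative Kdm5a was at 10.1 ± 0.358 and 10.7 ± 0.260 FPKM. Its groups did not overlap, yet the limma adjusted p was 0.0860. The ratio of Kdm5b to Kdm5a in a library was 1.17 to 1.33 with DMSO and 1.46 to 1.74 with DADA. Kdm7a, which acts on dimethylated H3K9 and H3K27, rose from 6.40 ± 0.336 to 8.46 ± 0.460 FPKM (log2 fold change 0.35, limma adjusted p = 1.42e-04). Kdm2a, an H3K36 demethylase that binds CpG islands, rose from 14.6 ± 0.370 to 17.7 ± 0.854 FPKM (0.27, limma adjusted p = 1.61e-04).

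The FAD-dependent demethylases of H3K4 went the other way. Kdm1a (LSD1, ENSMUSG00000036940), the catalytic subunit of the CoREST complex, was at 39.9, 39.9, 39.5 and 39.6 FPKM with DMSO and at 32.9, 30.6, 32.6 and 31.7 FPKM with DADA. The DMSO libraries were nearly identical (SD 0.232 FPKM) and every DADA library was lower, a log2 fold change of -0.31 (SE 0.0275, adjusted p = 4.87e-06 by limma). Kdm1b (LSD2) was at 6.67, 5.87, 6.09 and 5.76 FPKM with DMSO and at 5.04, 4.95, 5.42 and 5.49 FPKM with DADA. Its groups lay closer together and did not overlap (log2 fold change -0.19, SE 0.0536, adjusted p = 0.0106 by limma). With DMSO, Kdm1a had the highest FPKM of the 14 demethylases. With DADA, Kdm4a stood above it without overlap, and the share of Kdm1a in the summed FPKM of the family went from 20.05% to 20.6% down to 15.4% to 15.7%.

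The remaining demethylases were not called. Kdm2b, a subunit of a variant Polycomb complex, was at 20.9 ± 0.617 and 21.4 ± 1.05 FPKM. Kdm3b, an eraser of H3K9 methylation, was at 15.2 ± 0.880 and 15.02 ± 0.697 FPKM, and Kdm6b (JMJD3), an H3K27 demethylase, at 11.2 ± 0.404 and 11.7 ± 0.249 FPKM. The 95% intervals of their log2 fold changes were -0.05 to 0.12, -0.13 to 0.09 and -0.03 to 0.13, all within 0.13 of no change. Kdm8, a JmjC protein whose action on histones is disputed, was at 3.24 ± 0.248 and 2.77 ± 0.399 FPKM (limma adjusted p = 0.0802), and its interval, -0.35 to 0.01, was wider.

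**Figure D2:**
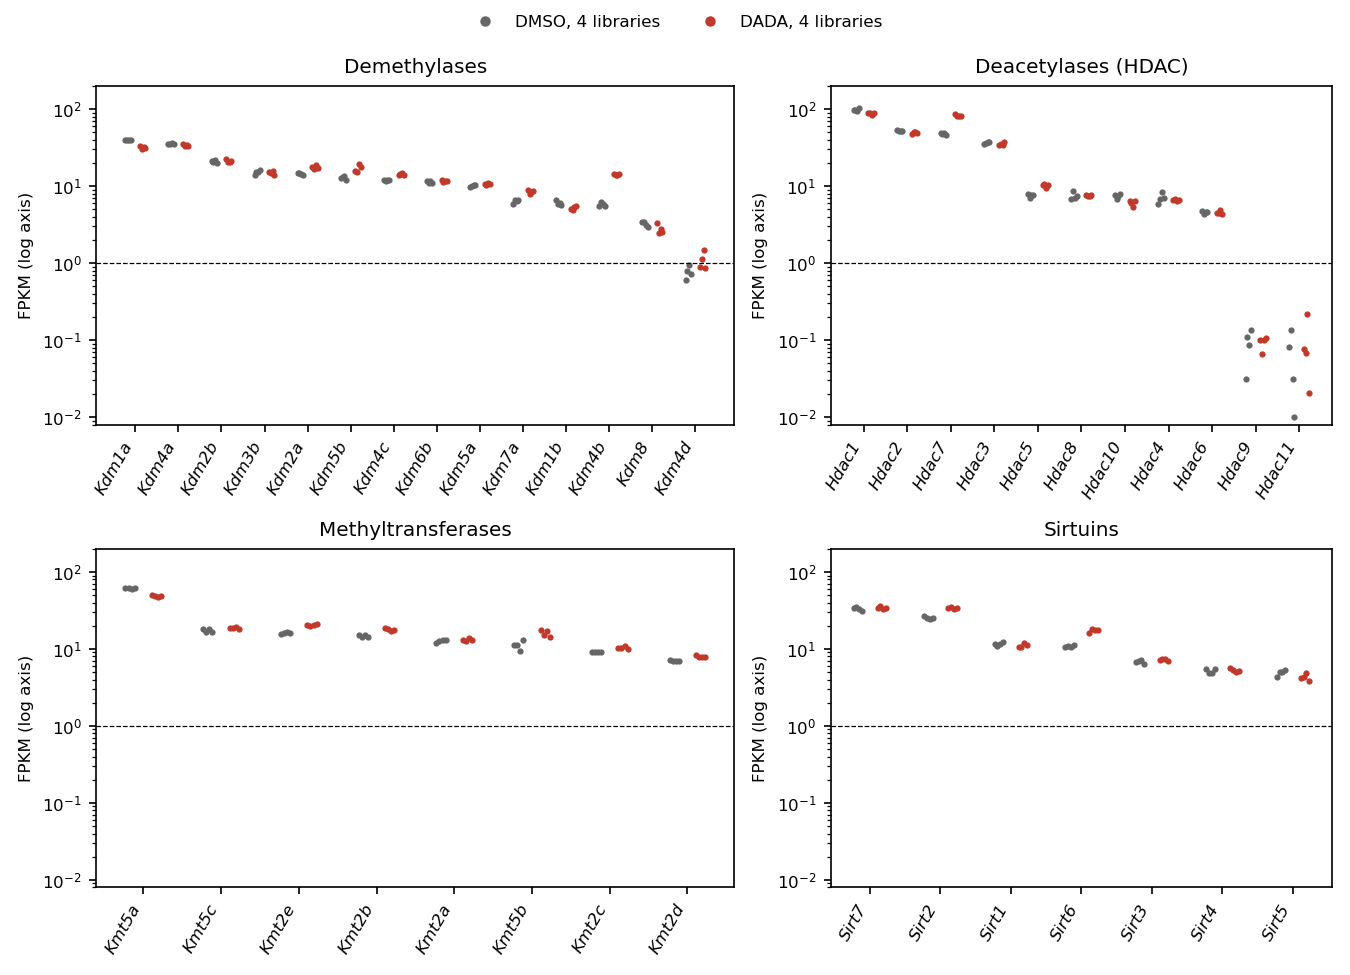
FPKM of all 40 genes in each library on a log axis, 1 panel per family, genes ordered by their mean with DMSO. Grey points are the 4 DMSO and red points the 4 DADA libraries, the dashed line marks 1 FPKM, and the DMSO library in which Hdac11 was at 0 is drawn at the bottom of the axis. Kdm4b, Hdac7 and Sirt6 show the largest changes of the tested genes, and Kdm4d, Hdac9 and Hdac11 lie near or under the line.

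Among methyltransferases, 4 of 5 genes with a Kmt2 symbol rose, while the H4K20 methyltransferases Kmt5b and Kmt5a moved in opposite directions. Of 8 tested genes, 5 rose, 1 fell and 2 were not called, with a median log2 fold change of 0.16. The share called was 75%, against 66.2% of all tested genes (30.9% higher and 35.3% lower). Kmt5b rose from 11.2 ± 1.42 to 16.1 ± 1.59 FPKM, whereas Kmt5a, the most abundant of the 8, fell from 61.3 ± 0.726 to 48.9 ± 1.65 FPKM.

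KMT5A is the enzyme that places the first methyl group on H4K20 and is known for its regulation through the cell cycle. Kmt5a (ENSMUSG00000049327) read 61.5, 61.7, 60.3 and 61.9 FPKM with DMSO and 50.6, 49.2, 46.7 and 49.0 FPKM with DADA. No DADA library came near a DMSO library (log2 fold change -0.32, SE 0.0276, adjusted p = 3.52e-06 by limma). KMT5B and KMT5C add the second and further methyl groups. Kmt5b (ENSMUSG00000045098) read 11.1, 11.3, 9.47 and 12.9 FPKM with DMSO and 17.6, 15.2, 17.3 and 14.3 FPKM with DADA. Both groups scattered more than most (coefficients of variation 12.7% and 9.86%) but were separated (log2 fold change 0.49, SE 0.0895, adjusted p = 7.89e-04 by limma). Kmt5c was at 17.4 ± 0.878 and 18.7 ± 0.453 FPKM and not called (log2 fold change 0.09, limma adjusted p = 0.0537), although 7 of 17 other settings called it. The ratio of Kmt5b to Kmt5a was 0.157 to 0.209 with DMSO and 0.293 to 0.370 with DADA. Kmt5a made up 40.5% to 41.3% of the summed FPKM of the 8 methyltransferases with DMSO and 30.4% to 32.5% with DADA.

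The KMT2 proteins are the large H3K4 methyltransferases of the trithorax type. Kmt2e, a divergent member known as a reader of trimethylated H3K4, changed most: 15.4, 16.04, 16.7 and 16.3 FPKM with DMSO and 20.6, 19.8, 20.7 and 20.9 FPKM with DADA. Its groups were well apart (log2 fold change 0.33, SE 0.0331, adjusted p = 1.11e-05 by limma). Kmt2b rose from 14.9 ± 0.476 to 17.8 ± 0.743 FPKM (0.25, limma adjusted p = 2.36e-04). The enhancer enzymes rose less, Kmt2d from 7.002 ± 0.108 to 8.01 ± 0.175 FPKM (0.17, limma adjusted p = 0.00170) and Kmt2c from 9.18 ± 0.0645 to 10.4 ± 0.486 FPKM (0.16, limma adjusted p = 0.00445). Kmt2a (MLL1) was at 12.7 ± 0.440 and 13.1 ± 0.499 FPKM and was not called, with a 95% interval of -0.05 to 0.12. In all, 4 of these 5 rose, by 1.13 to 1.27 times in FPKM. Setd1a and Setd1b, whose products also methylate H3K4, lie outside the naming rule. Setd1b fell from 3.69 to 2.97 FPKM (-0.24, limma adjusted p = 0.00208). Setd1a was not called (-0.03, limma adjusted p = 0.520).

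Among the deacetylases, Hdac7 and Hdac5 of class IIa rose, and Hdac1 and Hdac2 of class I and Hdac10 of class IIb fell. Hdac7 rose from 47.8 ± 1.36 to 82.9 ± 2.46 FPKM, 1.73 times, while Hdac1, the most abundant deacetylase, fell from 98.9 ± 3.49 to 87.8 ± 2.90 FPKM. Of the 9 tested genes, 2 rose, 3 fell and 4 were not called, and the median log2 fold change was -0.06. The share called was 55.6%, against 66.2% of all tested genes.

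Class IIa deacetylases have little catalytic activity of their own, bind transcription factors such as MEF2 and leave the nucleus when T cell receptor signals lead to their phosphorylation. Hdac7 (ENSMUSG00000022475) was at 49.3, 47.0, 48.6 and 46.4 FPKM with DMSO and at 86.3, 82.0, 82.7 and 80.5 FPKM with DADA. The gap between the groups was many times the spread within them (log2 fold change 0.78, SE 0.0295, adjusted p = 9.04e-09 by limma). Hdac5 was at 7.91, 7.08, 7.60 and 7.70 FPKM with DMSO and at 10.4, 10.6, 9.49 and 10.4 FPKM with DADA. All DADA libraries were higher, DADA 3 standing below the other 3 (log2 fold change 0.39, SE 0.0468, adjusted p = 4.15e-05 by limma). The third class IIa gene tested, Hdac4, was at 7.04 ± 1.05 and 6.59 ± 0.137 FPKM (limma adjusted p = 0.443, 95% interval -0.26 to 0.11). Hdac9 did not reach the filter, at 0.0910 ± 0.0445 and 0.0931 ± 0.0178 FPKM.

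Class I enzymes are the nuclear catalytic subunits of corepressor complexes. Hdac1, shared by the NuRD, SIN3 and CoREST complexes, was at 97.7, 99.0, 95.3 and 103.6 FPKM with DMSO and at 89.3, 89.8, 83.5 and 88.4 FPKM with DADA. Every DADA library was lower (log2 fold change -0.17, SE 0.0324, adjusted p = 0.00102 by limma). Its partner Hdac2 went from 52.4 ± 0.841 to 49.4 ± 1.15 FPKM (-0.08, limma adjusted p = 0.0123). That call was lost with a common total (limma adjusted p = 0.0854) and with quantile normalization (limma adjusted p = 0.0727). Hdac3, the enzyme of the NCoR and SMRT complexes, was at 36.6 ± 0.910 and 35.2 ± 1.38 FPKM, and Hdac8, which deacetylates cohesin, at 7.47 ± 0.834 and 7.55 ± 0.203 FPKM. Neither was called, with 95% intervals of -0.13 to 0.02 and -0.13 to 0.16.

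Hdac10 of class IIb, a polyamine deacetylase, was at 7.64, 6.71, 7.41 and 7.88 FPKM with DMSO and at 6.38, 6.04, 5.40 and 6.40 FPKM with DADA. The lowest DMSO library and the highest DADA library were close, but the groups did not overlap (log2 fold change -0.25, SE 0.0618, adjusted p = 0.00461 by limma). The tubulin deacetylase Hdac6, of the same class, was at 4.58 ± 0.188 and 4.53 ± 0.230 FPKM (95% interval -0.12 to 0.09). Hdac11, the only class IV member, was under the filter at 0.0626 ± 0.0602 and 0.0965 ± 0.0867 FPKM.

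The order of the deacetylases changed with these shifts. With DMSO, Hdac7 stood below Hdac1 and Hdac2, and its ratio to Hdac1 in a library was 0.448 to 0.510. With DADA it exceeded Hdac2 in every library, its range overlapped that of Hdac1, and the ratio was 0.910 to 0.990. Its share of the summed deacetylase FPKM went from 16.95% to 18.3% up to 27.7% to 29.4%, while that of Hdac1 went from 35.5% to 37.8% down to 29.4% to 30.7%. The sum itself was 268 to 274 FPKM with DMSO and 284 to 294 FPKM with DADA.

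**Figure D3:**
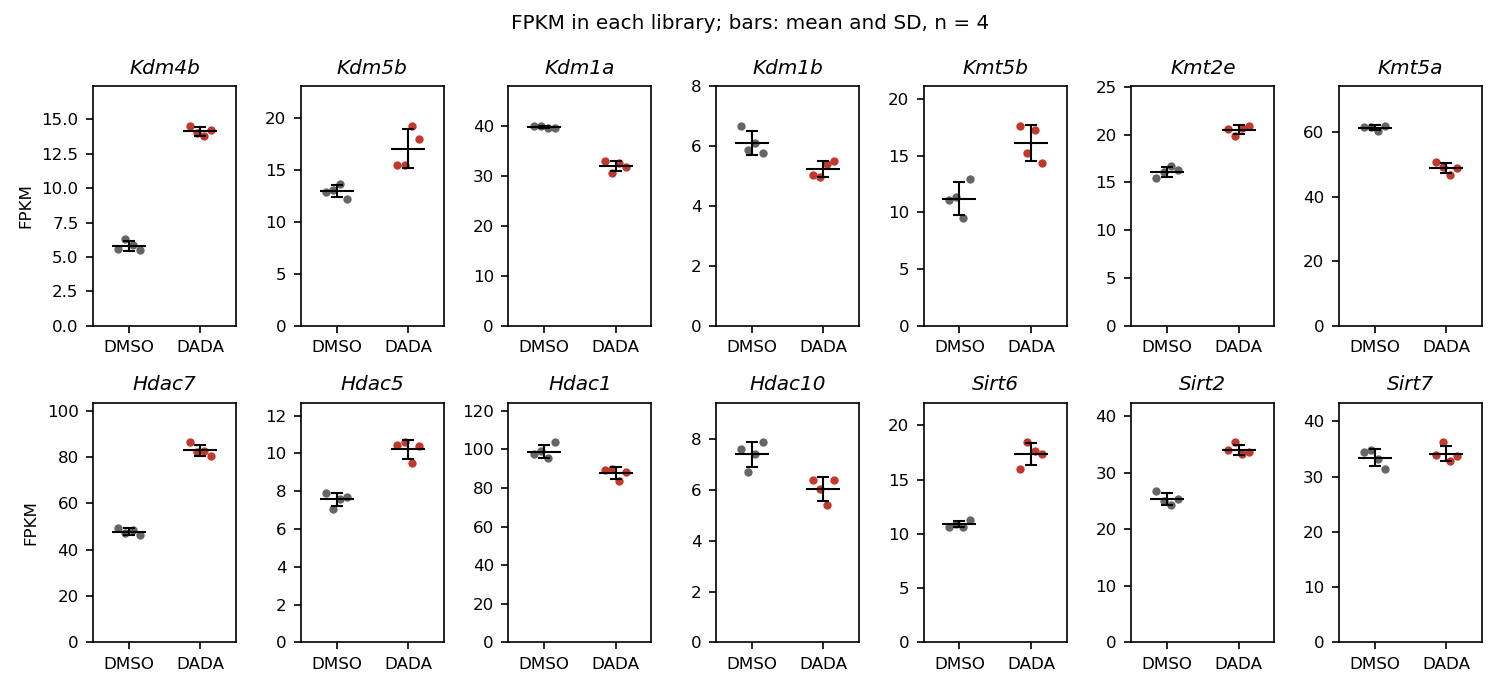
FPKM in each library (points), with the mean and SD of the 4 libraries of a group, for 14 genes: in each family, up to 2 called genes with the largest change in each direction and the gene with the highest mean. Each axis starts at 0. The groups are separated for all but Sirt7, whose libraries lie between 31.4 and 36.2 FPKM in both groups.

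Of the 7 sirtuins, Sirt6 and Sirt2 rose, none fell and the other 5 were not called. Sirt6 went from 10.9 ± 0.298 to 17.4 ± 1.00 FPKM and Sirt2 from 25.4 ± 1.08 to 34.1 ± 0.907 FPKM. The share called was 28.6%, against 66.2% of all tested genes, and the family's median log2 fold change was 0.03. At an unadjusted p under 0.05, limma had 1 lower, Sirt5. The count of 0 lower became 1, again Sirt5, under 5 of 17 other settings, quantile normalization among them. Another of the 17, a filter at a mean of 5 FPKM, did not test Sirt5.

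The nuclear sirtuins are SIRT1, SIRT6 and SIRT7. SIRT6 deacetylates H3K9 and is known as a repressor of glycolytic genes. Sirt6 (ENSMUSG00000034748) was at 10.7, 10.9, 10.7 and 11.3 FPKM with DMSO and at 16.01, 18.4, 17.7 and 17.4 FPKM with DADA. All DADA libraries were well above all DMSO libraries (log2 fold change 0.63, SE 0.0437, adjusted p = 7.56e-07 by limma). Sirt1, a deacetylase of histones and many transcription factors, was at 11.6 ± 0.561 and 11.1 ± 0.654 FPKM (limma adjusted p = 0.311, 95% interval -0.17 to 0.05). Sirt6 and Sirt1 overlapped with DMSO, at a ratio of 0.912 to 0.995, and with DADA Sirt6 exceeded Sirt1 in each library, at 1.48 to 1.75. Sirt7, a nucleolar enzyme and the most abundant sirtuin, was at 34.4, 34.8, 33.3 and 31.4 FPKM with DMSO and at 33.8, 36.2, 32.9 and 33.8 FPKM with DADA. Those groups overlapped throughout (log2 fold change 0.03, limma adjusted p = 0.521).

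The letters before the transcription start of Sirt6 and Sirt1 are shown because this pair had like levels with DMSO and separated with DADA. Both runs are the 250 bases before the start as RefSeq places it on GRCm38.p6, 5′ to 3′ on the strand of the gene, which is the minus strand for both. Capitals mark ACGTG or GCGTG on either strand, the core letters to which hypoxia-inducible factors are known to bind, a motif chosen after values were seen.
Sirt6, chr10:81627567-81627816: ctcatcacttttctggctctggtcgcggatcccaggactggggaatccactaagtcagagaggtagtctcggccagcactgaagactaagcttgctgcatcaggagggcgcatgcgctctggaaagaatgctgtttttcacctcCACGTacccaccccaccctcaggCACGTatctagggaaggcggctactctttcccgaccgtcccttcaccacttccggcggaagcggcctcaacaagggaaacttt
Sirt1, chr10:63339036-63339285: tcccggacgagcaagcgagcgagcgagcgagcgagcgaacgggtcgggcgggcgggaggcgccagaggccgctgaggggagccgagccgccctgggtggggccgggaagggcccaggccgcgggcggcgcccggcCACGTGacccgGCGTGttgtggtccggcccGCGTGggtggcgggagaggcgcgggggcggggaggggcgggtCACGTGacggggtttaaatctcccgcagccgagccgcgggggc
The Sirt6 stretch held 2 matches, both of ACGTG on the opposite strand. Another start region listed for Sirt6 held none. That of Sirt1, which is richer in G and C, held 6, among them 2 copies of the palindrome CACGTG, each of which counts on both strands, so that the 6 matches lie at 4 places. Nothing about a factor is drawn from this 1 pair.

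Over the family, 30 of the 40 genes had 43 start regions (250 bases before to 50 after the start) in the RefSeq table, which holds 32851 regions of 27025 genes. ACGTG was in 25.6% of the 43 against 19.6% of all regions, and GCGTG in 46.5% against 32.4%. The 43 regions were rich in G and C, with a median of 61.3% against 52.7% of all, held the GC box GGGCGG in 67.4% against 35.7%, and held TATAA in 9.30% against 24.9%. The palindrome CACGTG, which contains ACGTG, was in 6.98% against 7.15%. Among genes with a region, 9 of 10 that rose, 3 of 5 that fell and 8 of 15 not called or not tested had ACGTG or GCGTG in at least 1. The share over all 27025 genes was 46.7%. Neither those genes nor the regions set beside the 43 were limited to genes expressed in these cells. The counts of genes that rose and fell leave out Kdm4b, Kdm2a, Kmt2b and Kmt2e, called higher, and Hdac1 and Hdac10, called lower, which had no region. Base composition and the number of regions per gene differ between genes, and their part in these shares was not tested. The shares say only where the letters occur.

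SIRT2 is the mainly cytosolic sirtuin, a deacetylase of tubulin and metabolic enzymes. Sirt2 read 26.9, 25.0, 24.3 and 25.3 FPKM with DMSO and 34.0, 35.4, 33.3 and 33.7 FPKM with DADA. The groups were separated by several times their spread (log2 fold change 0.41, SE 0.0348, adjusted p = 3.08e-06 by limma). With DMSO it stood below Sirt7 in every library, at a ratio of 0.719 to 0.805, and with DADA their ranges overlapped, at 0.977 to 1.01. The 3 mitochondrial sirtuins were not called. The main mitochondrial deacetylase Sirt3 was at 6.86 ± 0.399 and 7.29 ± 0.206 FPKM (95% interval -0.03 to 0.18). Sirt4 was at 5.19 ± 0.365 and 5.32 ± 0.245 FPKM (-0.09 to 0.15). Sirt5, which removes succinyl and malonyl groups, was at 4.94 ± 0.396 and 4.27 ± 0.428 FPKM, with a limma adjusted p of 0.0509 and an interval of -0.33 to -0.02. Summed over the family, sirtuin RNA was 97.0 to 100.3 FPKM with DMSO and 112 to 118 FPKM with DADA.

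All 21 called genes had groups that did not overlap, as did 60.6% of all tested genes. Each of the 21 gave an exact permutation p of 0.0286 (two-sided), the smallest that 70 assignments of 8 libraries can give. Any gene with separated groups gets this value. Call, separation and exact p rest on the same 8 values and are not separate lines of support. The summed FPKM of demethylases, 193 to 197 with DMSO and 199 to 210 with DADA, and of methyltransferases, 149 to 151 and 151 to 157, moved little beside the shifts within the families.

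Other enzymes of the same chemistries, on lists drawn up by function, went in both directions. So did all tested genes, with 30.9% called higher and 35.3% lower, and the counts of each list must be read against these shares. Of 20 other lysine methyltransferases, 5 rose and 11 fell, with a median log2 fold change of -0.12. Nsd2 (-0.52) and Suv39h2 (-0.49), enzymes of H3K36 and H3K9, fell most, and Nsd3 (0.36) and Smyd3 (0.34) rose most. Of 10 other JmjC proteins, 6 rose and 2 fell, with a median of 0.18. Jmjd6, a lysyl hydroxylase, rose from 30.3 ± 0.934 to 72.7 ± 7.53 FPKM (1.23, limma adjusted p = 8.90e-08), more than any of the 37 enzymes, and Jarid2, a catalytically inactive partner of PRC2, rose by 0.62. The ribosomal oxygenases Riox2 (-0.43) and Riox1 (-0.20) fell.

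Histone acetyltransferases split into 5 higher and 4 lower of 14 (median 0.07), with Kat5 at 0.57, Ep300 at 0.37, Naa40 at -0.48 and Hat1 at -0.35. Their share called was 64.3%. Of 8 arginine methyltransferases tested among 9 listed, 1 rose and 5 fell (median -0.25): Prmt2 rose by 0.74, and Prmt7 (-0.63) and Prmt3 (-0.58) fell most.

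Subunits of complexes that hold such enzymes were read as well. Of 29 subunits of the HDAC corepressor complexes, 8 rose and 11 fell (median -0.01). The share called, 65.5%, was near the 66.2% of all tested genes. The histone chaperones Rbbp7 and Rbbp4, which share complexes with HDAC1 and HDAC2, fell from 215 ± 5.41 to 130.3 ± 5.76 FPKM (-0.72, limma adjusted p = 3.88e-08) and from 77.0 ± 1.92 to 59.2 ± 0.635 FPKM (-0.37). Other subunits went up: the SIN3 subunit Sap30 rose from 24.9 ± 1.00 to 45.3 ± 0.270 FPKM (0.84) and the CoREST paralog Rcor2 rose from 1.03 ± 0.0998 to 3.93 ± 0.187 FPKM (1.28). Of 13 subunits of COMPASS and MLL complexes, not all of them partners of the KMT2 proteins, 3 rose and 8 fell, with a median of -0.25. Rbbp5 (-0.54) and Wdr82 (-0.42) fell most, and menin (Men1, 0.38) and Hcfc2 (0.24) rose most. Of 16 Polycomb subunits, 5 rose and 6 fell (median -0.04), with Phf1 at 0.36, Cbx8 at 0.28, Phf19 at -0.57 and Cbx2 at -0.47. Their share called, 68.75%, was also near that of all tested genes.

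Genes that supply or spend the cofactors also went both ways, 6 higher and 10 lower of 20 tested among 23 listed (median -0.10). Of the 20, 80% were called, against 66.2% of all tested genes. For NAD+, the substrate of the sirtuins, Nampt, the rate-limiting enzyme of its salvage, rose from 30.2 ± 1.01 to 58.0 ± 1.27 FPKM (0.92, limma adjusted p = 2.72e-09). The nicotinamide riboside kinase Nmrk1 rose from 11.7 ± 0.618 to 21.2 ± 1.95 FPKM (0.80), and the NAD+ consumer Parp1 fell from 59.5 ± 1.41 to 40.5 ± 0.781 FPKM (-0.54). Nadsyn1, also of NAD+ synthesis, fell from 4.41 to 3.44 FPKM (-0.29, limma adjusted p = 0.00211). Idh2, a mitochondrial source of 2-oxoglutarate, fell from 25.6 ± 1.15 to 17.6 ± 1.64 FPKM (-0.52, limma adjusted p = 4.11e-05). Its cytosolic relative Idh1 went the other way, from 3.23 to 4.83 FPKM (0.46, limma adjusted p = 0.00161). Whether these changes and those of the 37 enzymes depend on each other was not tested.

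**Figure D4:**
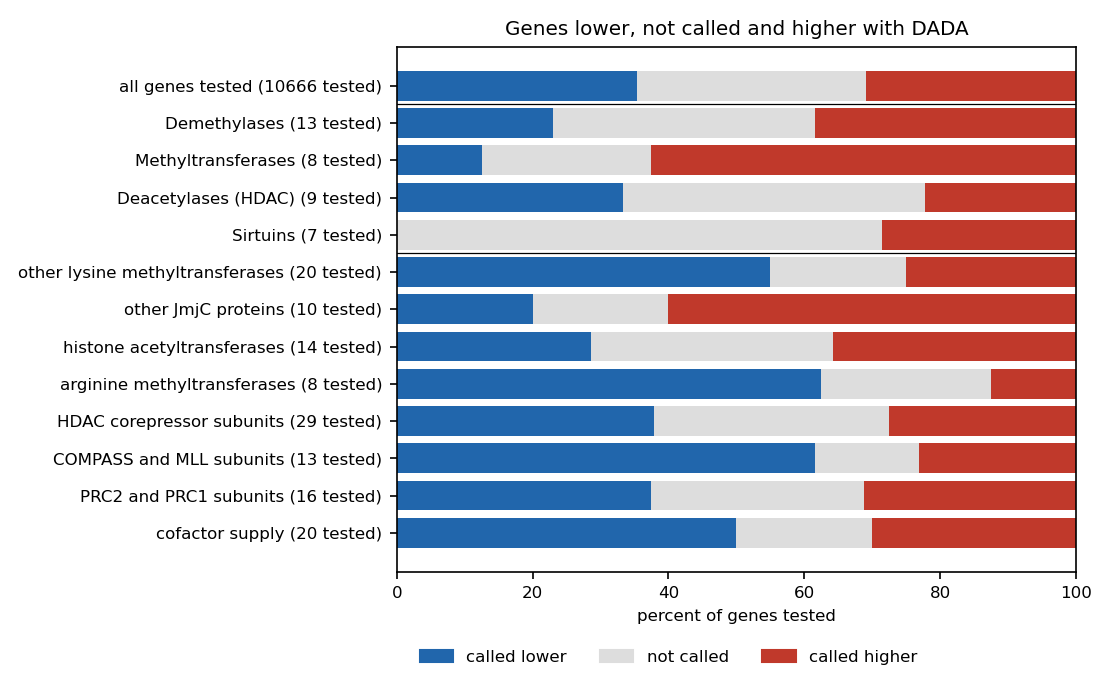
Percent of tested genes called lower (blue), not called (grey) and called higher (red) with DADA, for all 10666 genes, the 4 families and 8 lists of related genes, with the number tested in each. Sirtuins have no lower call and methyltransferases have 5 higher of 8, while the COMPASS and MLL subunits have 8 lower of 13.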

How the data were processed

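The authors sequenced 8 libraries and deposited FPKM per gene and library. The submitters' processing notes list HISAT2 2.0.5, StringTie 1.3.3, Picard 1.41, SAMtools 0.1.18, FastQC 0.11.9 and CASAVA 1.8.2, and the builds GRCh38 and GRCm39, without saying which step or table each served, so no gene coordinates are taken from the files. The labels and the study name different library kits. Values were analysed as log2(FPKM + 1), a scale on which changes of low genes are understated, for genes at 1 FPKM or more in at least 4 libraries. DADA was compared with DMSO by limma 3.58.1 in R 4.3.3 (lmFit, eBayes with a mean-variance trend, Benjamini-Hochberg adjustment over 10666 genes, of which 163 are assembled transcripts). The code was tested on simulated data. Single genes also had a two-sided exact permutation test. The labels do not say that libraries came from separate animals, so p-values measure the spread between these samples, which may be technical. Libraries were grouped by their titles. One item is not reported here. The genes and lists were chosen with earlier results of these data known. Per-library values and full statistics are given by rule for the 2 called genes with the largest change in each direction and the most abundant gene of each family. In each list up to 2 called genes in each direction are named, and Idh1 and Nadsyn1 were added to those of the cofactor list. Setd1a and Setd1b were added to those of the other lysine methyltransferases. Sequences are from RefSeq (GRCm38.p6), matched by symbol. Alternatives were other pseudocounts, filters and scalings, no trend, a replicate block, no assembled transcripts and leaving out each library.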

Additional observations from a re-analysis of the deposited data

Results flagged for a closer look

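In Hdac5, library DADA 3 stood apart from the other DADA libraries, at 9.49 FPKM against 10.4 to 10.6 FPKM. Its gap to the nearest library was 0.833 of the range of the group, past the limit of Dixon's test for 4 samples. In all, 80 groups of 4 libraries were looked at, and chance alone passes this limit in about 1 in 20 groups, which would be 4 of 80. The call of Hdac5 was kept under every alternative run, its log2 fold change lying between 0.35 and 0.44.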

How the results depend on the processing

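Across 17 alternatives, 19 of the 21 called genes kept their call and direction in each. Kdm4a lost its call under 11 and Hdac2 under 2, and 4 genes gained one under some: Kdm5a with a common total (0.11, limma adjusted p = 0.0451), Kmt5c (7 settings), Kdm8 (2) and Sirt5 (5). Kdm8, Sirt5 and Hdac6 were not tested under the filter at a mean of 5 FPKM. The number of sirtuins called lower, 0 as reported, was 1 with quantile normalization, 1 without the mean-variance trend and 1 without assembled transcripts, and 0 to 1 with libraries left out (1 without DMSO 1 and without DADA 3). The cause was not tested. The sign of the log2 fold change turned for 5 uncalled genes: Sirt4 with quantile normalization (-0.0460), Hdac8 with quantile normalization (-0.0346), Kdm3b and Hdac6 with a common total (0.0120 and 0.0139), and, with libraries left out, Hdac4 (-0.144 to 0.00569), Kdm3b (-0.0517 to 0.0114), Hdac6 (-0.0416 to 0.00470) and Hdac8 (-0.0224 to 0.0815). Over all genes, 7064 were called as reported and 5741 to 7868 under the alternatives, the median of all genes staying between -0.05 and 0.02.

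Same-numbered libraries of the groups did not deviate together (correlations -0.06 to 0.03). The values thus showed no pairing by number, but they cannot tell whether libraries were paired by design. A replicate block called 6995 genes, 15 of the members higher and 6 lower, gaining Kmt5c and losing Kdm4a (adjusted p 0.0470 and 0.0586). With no read depth, a change of Hdac9, Hdac11 or Kdm4d could not be judged against counting error.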
